A study of Mus musculus with 6 samples.

Results

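Wnt proteins are secreted lipid-modified ligands that bind Frizzled receptors and, in the canonical branch, stabilise β-catenin, which then acts with TCF/LEF factors on target genes such as *Axin2*. Secreted proteins of the Dkk and Sfrp families limit this signal outside the cell, by binding the Lrp co-receptors or the ligands themselves. In the cornea, Wnt signalling is known for its part in the exchange between epithelium and stroma and in the upkeep of limbal stem cells. The genes described here are ligands (*Wnt4*, *Wnt5a*, *Wnt10a*), a receptor (*Fzd6*), secreted antagonists (*Dkk2*, *Dkk3*, *Sfrp1*), a feedback target (*Axin2*) and a transcription factor (*Lef1*). They were chosen by gene symbol. Of 10 genes so chosen, 9 had a row among the 17554 genes of the deposited table, 7 passed the filter on low counts, and the tenth gene was not analysed here.

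RNA of the separated corneal epithelial layer was profiled in 3 control and 3 *Krt14-Cre; Rela f/f* samples, all from C57BL/6 mice of 2 months of age. The controls are labelled WT and the mutants Rela-/-, and whether the controls carried the floxed allele or Cre is not stated in the sources used here. *Krt14-Cre* acts in cells that have used the keratin 14 promoter, so it deletes *Rela*, the gene of the RelA subunit of NF-κB, in the corneal epithelium but also in other stratified epithelia of the mouse. The samples are described as independent biological samples, and no source used here says whether a sample pooled animals.

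Each sample held 19492942 to 19733834 expected counts, at which 3 counts equal 0.152 to 0.154 CPM (counts scaled by the library total), a limit that covers counting error only. Levels are given as FPKM, which is scaled by transcript length and library total. *Rela* itself stood at 36.47, 34.71 and 33.43 FPKM in the controls and at 4.93, 5.53 and 5.72 FPKM in the mutants, a log2 fold change of -2.75 (edgeR adjusted p = 5.5e-07). *Krt12*, the keratin of the corneal epithelium, reached 17010 to 21190 FPKM in every sample. *Krt14*, whose promoter drives the Cre, was at 149.8 to 203 FPKM in the controls and 1474 to 2204 FPKM in the mutants. The summed FPKM of 10 stromal keratocyte markers was 1.05 to 1.30 in the controls and 4.61, 3.03 and 1.40 in mutants 1, 2 and 3. Within it, *Dcn* was at 0.08, 0.06 and 0.03 FPKM in the controls and at 1.80, 0.96 and 0.39 FPKM in the mutants (edgeR adjusted p = 0.00507). *Lum* and *Col3a1* did not exceed 0.02 FPKM in the controls and reached 0.57 and 0.29 FPKM in mutant 1, while *Kera* stayed at or below 0.07 FPKM in every sample. The conjunctival sum was 1362 to 1595 in the controls and 1074 to 1192 in the mutants. Most of it was *Krt13*, at a mean of 1329 FPKM in the controls and 1004 FPKM in the mutants (edgeR adjusted p = 0.0152). Of the 4 conjunctival markers tested, only *Krt13* passed. The log2 fold change was negative in 3 of them and positive in 1, *Krt19*. Immune cell markers summed to 21.5 to 25.6 in the controls and to 28.9 to 30.4 in the mutants, while blood vessel markers did not exceed 0.24. Most of the immune sum was *Cd68*, at 17.31 to 21.84 FPKM in the controls and 22.11 to 24.54 FPKM in the mutants (edgeR adjusted p = 0.224). *Ptprc* did not exceed 0.15 FPKM in any sample. Of the 7 immune markers 2 were tested, and 0 passed. Mutants 1 and 3 lay at opposite ends of the second principal component, which held 11.6% of the variance.

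In control epithelium the levels of the 9 genes spanned a wide range, and their order was the same in both genotypes. *Wnt4*, a ligand of several developing and adult epithelia, was the most abundant at 94.5 ± 1.54 FPKM (SD, n = 3), followed by the antagonist *Dkk3* at 69.2 ± 8.30 and the receptor *Fzd6* at 61.1 ± 3.98. *Sfrp1* followed at 37.2 ± 3.22, *Wnt10a* at 14.6 ± 1.34 and *Wnt5a* at 1.93 ± 0.387 FPKM. *Axin2* lay at 0.433 ± 0.123 FPKM, above *Lef1* at 0.0900 ± 0.0200 and *Dkk2* at 0.03 FPKM in each control. Of these neighbours, only *Dkk3* and *Fzd6* had overlapping ranges in the controls. In the mutants the ranges of *Lef1* and *Dkk2* overlapped as well.

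**Figure D1:**
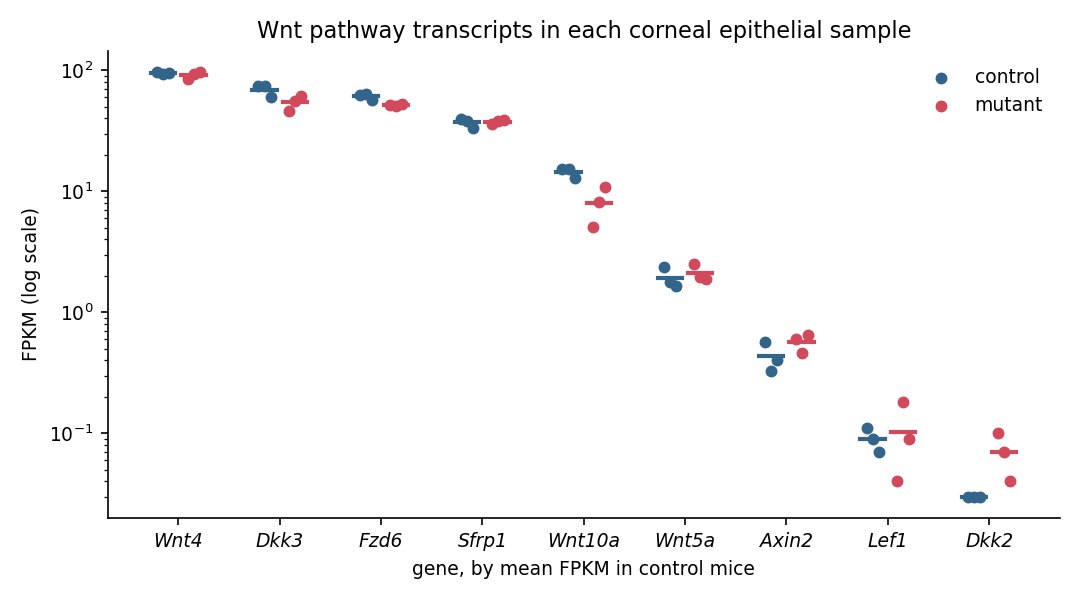
FPKM (log scale) of 9 Wnt pathway genes in each of 3 control and 3 mutant samples, with points for samples and bars for group means, ordered by the control mean. *Wnt10a* fell from 13.0 to 15.36 in the controls to 5.06 to 10.85 in the mutants, while *Wnt4* and *Sfrp1* overlapped between the genotypes.

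The question put to these genes is whether loss of RelA in the epithelium altered the Wnt components it transcribes. *Wnt10a* was lower in the mutants, and in edgeR it was the only one of the 7 genes tested that passed an adjusted p under 0.05. In DESeq2, *Fzd6* and *Dkk3* passed as well, 3 of 7 against 14.4% of all genes in that test. Over all 12667 genes tested with edgeR's quasi-likelihood test, 13.2% passed that threshold, with 7.82% of all genes higher and 5.42% lower in the mutants. The 7 genes tested had a median log2 fold change of -0.05, against a median near 0 over all genes, with 3 positive and 4 negative. None of the 7 was differentially expressed at the study's thresholds (a fold change of 2 or more with an adjusted p no higher than 0.001), which 1.37% of all genes met. DESeq2 gave 0 as well, against 2.61% of all genes. In edgeR, 3 of the 7 (*Wnt10a*, *Fzd6* and *Dkk3*) had an unadjusted p under 0.05, as had 28.1% of all genes. With 3 samples against 3, the smallest p of an exact two-sided permutation test is 0.1, and *Wnt10a*, *Fzd6* and *Dkk3* each reached it. Any gene whose groups do not overlap in log2 CPM reaches this p. The share of all genes that did so was not computed, while 32.6% of all genes did not overlap in FPKM.

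Among the ligands, *Wnt10a*, known for its role in the development of skin appendages and teeth, spans chr1:74792019-74804176 on the plus strand (GRCm38). It was measured at 15.28, 15.36 and 13.0 FPKM in the controls and at 5.06, 8.15 and 10.85 FPKM in the mutants. All 3 mutant samples were below every control, and the mutants were spread more widely (coefficient of variation 36.1% against 9.21%). Underlying these levels were 588, 586 and 497 expected counts in the controls and 193, 312 and 419 in the mutants. The log2 fold change was -0.86 (SE 0.21, 95% confidence interval -1.34 to -0.39, edgeR adjusted p = 0.0257). The call was lost when any 1 control or mutant 2 was left out, with an edgeR adjusted p of 0.0604 to 0.103. Calls over all genes fell in these fits too, to 857 to 1185 genes against 1678 with every sample. Without mutant 1, the lowest sample, the log2 fold change was -0.62 (edgeR adjusted p = 0.00972), in a fit where 1869 of all genes passed.

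The order of the mutant samples in *Wnt10a* was the reverse of that in the summed stromal markers given above, which were highest in mutant 1 and lowest in mutant 3. This order was not particular to *Wnt10a*. The FPKM of *Wnt4*, *Dkk3* and *Sfrp1* also rose from mutant 1 through mutant 2 to mutant 3, while that of *Wnt5a*, *Fzd6* and *Axin2* did not. In these bulk samples, fewer cells of one type and less RNA per cell cannot be told apart. The part of the stromal transcripts in the *Wnt10a* values was not tested.

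**Figure D2:**
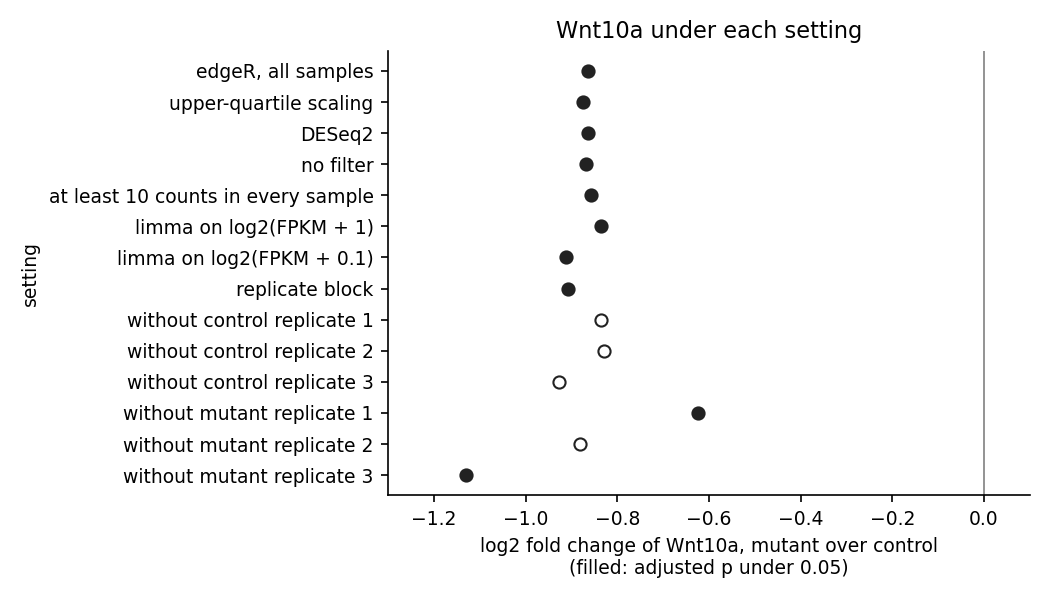
Log2 fold change of *Wnt10a* (mutant over control, x axis) under each analysis setting (y axis), with filled points where the adjusted p was under 0.05. Every estimate was negative, from -1.13 to -0.62, and the 4 open points are fits that leave out 1 sample.

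*Wnt4* (chr4:137277635-137299501, plus strand) stood at 95.89, 92.84 and 94.76 FPKM in the controls and 84.65, 92.97 and 96.82 FPKM in the mutants. The groups overlapped, with the lowest and the highest of the 6 values both among the mutants. The log2 fold change was -0.05 with a 95% confidence interval of -0.21 to 0.11 (edgeR adjusted p = 0.704), so a change of the size seen in *Wnt10a* lay outside the interval.

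*Wnt5a*, a ligand best known for β-catenin-independent signalling, spans chr14:28505473-28527448 on the plus strand. It was at 2.37, 1.78 and 1.64 FPKM in the controls and at 2.50, 1.95 and 1.88 FPKM in the mutants. The ranges overlapped over most of their width, with sample 1 the highest in each genotype. The log2 fold change was 0.10 (95% confidence interval -0.23 to 0.43, edgeR adjusted p = 0.713), and it was -0.02 without mutant 1.

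Beside these ligands, the wider list of Wnt ligands held 15 with a row, of which 11 were tested. In edgeR 4 passed the adjusted threshold, 36.4% of those tested against 13.2% of all genes. *Wnt9a* rose from 19.7, 18.68 and 19.67 FPKM to 32.19, 29.69 and 25.06 FPKM (log2 fold change 0.58, SE 0.103, edgeR adjusted p = 0.00569). *Wnt11*, a ligand of convergent extension movements, rose from 3.54, 4.28 and 4.42 FPKM to 6.04, 6.13 and 6.73 FPKM (log2 fold change 0.67, SE 0.114, edgeR adjusted p = 0.00496). *Wnt6* fell from 2.07, 1.94 and 1.54 FPKM to 0.89, 0.87 and 0.88 FPKM (log2 fold change -1.06, SE 0.193, edgeR adjusted p = 0.00661). The groups did not overlap in any of these 3 ligands, as was so for 32.6% of all genes tested. Each of the 3 kept its call in all 6 fits that leave out 1 sample, which *Wnt10a* did in 2 of 6.

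*Wnt6* and *Wnt10a*, both lower in the mutants, are neighbours on chromosome 1, on the same strand and 6.70 kb apart in the coordinates of the table. In another pair of neighbouring ligands, *Wnt3a*, which lies 16.1 kb from *Wnt9a* on chromosome 11 and on the opposite strand, had a log2 fold change of 0.11 (edgeR adjusted p = 0.553), while *Wnt9a* rose. No 50-base window of the transcripts annotated for *Wnt6* or *Wnt10a* occurred in another gene. The mutant values of *Wnt6* lay within 0.87 to 0.89 FPKM while those of *Wnt10a* ranged from 5.06 to 10.85 FPKM.

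The summed FPKM of the 15 ligands was 208 ± 4.83 in the controls and 205 ± 8.95 in the mutants (SD, n = 3 each), so the total differed by less than the spread between samples. *Wnt4* made up 45.4% ± 1.26 of that sum in the controls and 44.7% ± 1.49 in the mutants. *Wnt7b*, the next ligand, made up 27.7% and 26.1%. The share of *Wnt10a* was 6.98% ± 0.495 in the controls and 3.89% ± 1.30 in the mutants (3.99% and 2.2% on CPM, which is not divided by length), and the share of *Wnt9a* was 9.30% ± 0.401 and 14.2% ± 2.28. *Wnt5a* contributed 0.925% and 1.04%. These shares are a description with no test, and they describe transcripts per length, not secreted protein.

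**Figure D3:**
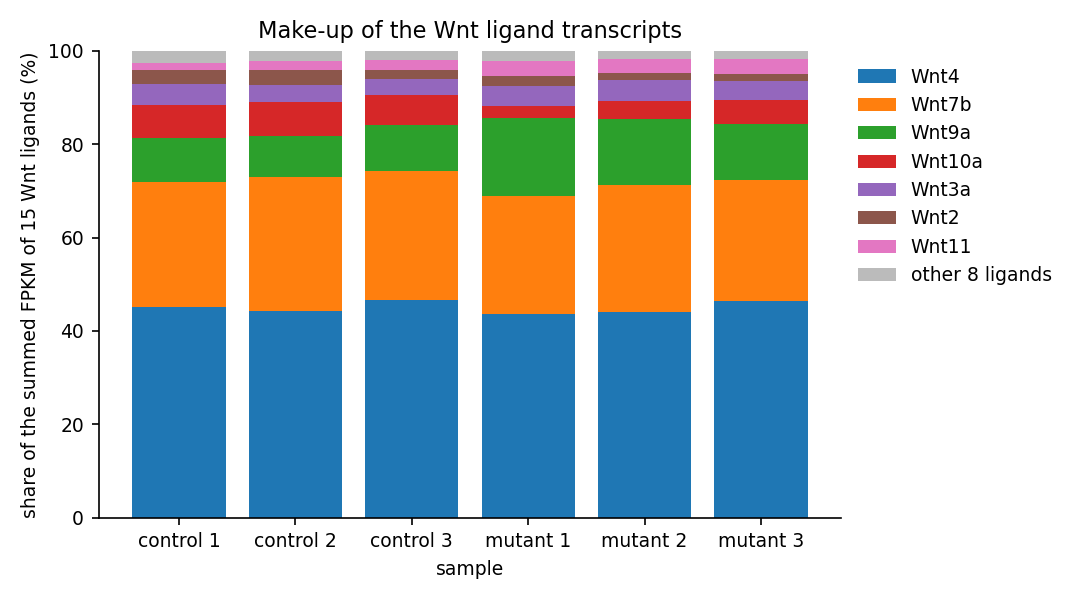
Share (%, y axis) of each Wnt ligand in the summed FPKM of 15 ligands, stacked for each of the 6 samples (x axis), with the 8 least abundant ligands joined in grey. *Wnt4* filled 43.6% to 46.7% of every bar, and *Wnt10a* was narrowest in mutant 1 at 2.60%.

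Of the receptors, *Fzd6*, which is known for its role in planar cell polarity and hair patterning in the skin, spans chr15:39005669-39038194 on the plus strand. It stood at 63.07, 63.61 and 56.46 FPKM in the controls and at 51.94, 50.22 and 53.14 FPKM in the mutants. All mutant values were below all control values, although control 3 lay closer to the mutants than to the other controls. Its log2 fold change was -0.23 (SE 0.0722, 95% confidence interval -0.40 to -0.07), which did not pass the threshold in edgeR (adjusted p = 0.0617) and passed it in DESeq2 (adjusted p = 0.0346). *Fzd6* and *Wnt10a* were the 2 of 7 genes tested whose FPKM values did not overlap between the groups. Over all genes tested, the share without overlap was 32.6%.

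*Fzd6* made up 63.2% ± 1.23 of the summed FPKM of 9 Frizzled receptors in the controls and 62.8% ± 0.470 in the mutants, so its place among them hardly moved. The sum itself was 96.6 ± 6.73 FPKM in the controls and 82.4 ± 1.95 FPKM in the mutants. In the list of 13 tested receptors and co-receptors, 2 fell and 0 rose, which is 15.4% of them against 13.2% of all genes and so near the background. *Fzd4* fell from 3.55, 5.37 and 3.59 FPKM to 1.29, 1.96 and 2.31 FPKM (log2 fold change -1.17, SE 0.221, edgeR adjusted p = 0.00776). *Fzd7* fell from 7.24, 8.04 and 6.91 FPKM to 6.20, 5.67 and 6.28 FPKM (log2 fold change -0.29, edgeR adjusted p = 0.0475), a call that was kept in 1 of 6 fits that leave out a sample.

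The antagonist *Dkk3*, a divergent member of the Dickkopf family that unlike its relatives is not known as a strong inhibitor of the Lrp co-receptors, spans chr7:112116019-112159121 on the minus strand. It was at 73.86, 74.2 and 59.65 FPKM in the controls and at 46.39, 55.82 and 61.51 FPKM in the mutants. Control 3 lay below mutant 3, so the groups overlapped on this scale. The log2 fold change was -0.35 (SE 0.112, 95% confidence interval -0.60 to -0.09), with an adjusted p of 0.0734 in edgeR and 0.0209 in DESeq2. Leaving out mutant 3 gave an edgeR adjusted p of 0.0465.

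*Sfrp1*, a secreted protein with a Frizzled-like domain that binds Wnt ligands, spans chr8:23411382-23449632 on the plus strand. It was at 39.87, 37.97 and 33.6 FPKM in the controls and at 36.07, 38.03 and 38.93 FPKM in the mutants. The mutant values lay inside the control range. The log2 fold change was 0.02 (95% confidence interval -0.15 to 0.19, edgeR adjusted p = 0.908).

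*Dkk2*, an inhibitor of the Lrp co-receptors known from the ocular surface, spans chr3:132085243-132180304 on the plus strand and was near the limit of detection. It held 1.86, 2.15 and 1.91 expected counts in the controls and 7.12, 4.96 and 2.99 in the mutants, and it did not pass the filter on low counts. Over the 3 samples of each genotype the rounded sums were 6 and 15 counts, a ratio of 2.50 with a counting interval of 0.915 to 7.85 that includes 1. Its mutant values ran in the same order as the stromal sums of 4.61, 3.03 and 1.40 FPKM, and the part of stromal transcripts in them was not tested.

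*Dkk3* and *Sfrp1*, with *Kremen1*, a receptor of Dickkopf proteins, made up nearly all of the summed FPKM of 9 antagonists and Kremen receptors. *Dkk3* held 48.8% ± 1.56 in the controls and 44.6% ± 2.15 in the mutants, and *Sfrp1* held 26.3% ± 0.902 and 31.0% ± 1.74. The sum was 142 ± 12.9 FPKM in the controls and 122 ± 11.4 FPKM in the mutants. Of the 5 genes of this list that were tested, 0 passed the adjusted threshold in edgeR, against 13.2% of all genes.

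**Figure D4:**
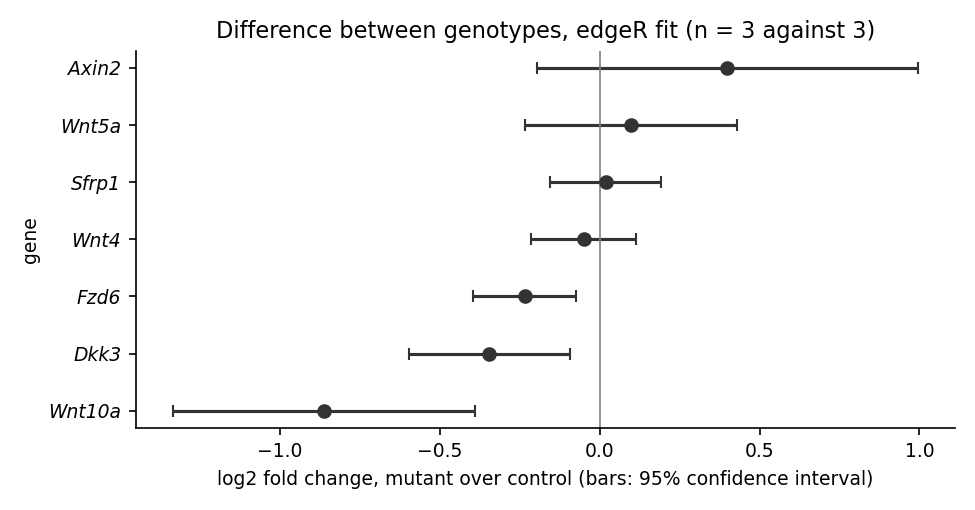
Log2 fold change (mutant over control, x axis) of the 7 genes tested (y axis) in the edgeR fit, with bars for the 95% confidence interval. The intervals of *Wnt10a*, *Dkk3* and *Fzd6* lay below 0, before adjustment over all genes, and that of *Axin2* was the widest, from -0.20 to 0.99.

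*Axin2*, a scaffold of the β-catenin destruction complex and a widely used readout of canonical Wnt activity, spans chr11:108917828-108950783 on the plus strand. It held 47, 26 and 32 expected counts in the controls and 49, 37 and 53 in the mutants, equal to 0.57, 0.33 and 0.40 FPKM and to 0.60, 0.46 and 0.65 FPKM. The groups overlapped, with control 1 above mutant 2. The log2 fold change was 0.40 (SE 0.266, 95% confidence interval -0.20 to 0.99, edgeR adjusted p = 0.369), so at this depth a fall of the size seen in *Wnt10a* lay outside the interval and a 1.99-fold rise lay within it.

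*Lef1*, a TCF/LEF factor that is also a Wnt target, spans chr3:131109026-131224357 on the plus strand and did not pass the filter. It held 5.98, 4 and 3 expected counts in the controls and 2, 8 and 5 in the mutants, with the lowest and highest values both in mutants. The sums were 13 and 15 counts, a ratio of 1.15 with a counting interval of 0.511 to 2.63. In the annotation, 13.8% of the exon bases of *Lef1* overlap a gene on the opposite strand, as do 4.58% of those of *Wnt5a*, 3.80% of *Axin2* and 3.16% of *Fzd6*. Whether counting used the strand is not given in the sources used here, so reads from those stretches are uncertain.

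Across the wider list of 95 Wnt pathway genes, 63 were tested, and 5 rose and 7 fell, 19.0% of those tested against 13.2% of all genes. The median log2 fold change of the list was -0.05. The FPKM values of 22 of the 63 did not overlap between the groups, against the 32.6% of all genes given above. *Wnt6*, *Wnt11*, *Wnt9a*, *Fzd4* and *Myc* were called in all 6 fits that leave out a sample, and the other 7 in 1 to 3 of them.

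Among 8 tested genes of the target list, which holds *Axin2*, 2 rose and 1 fell, 37.5% of them against 13.2% of all genes. These were *Tcf7*, *Myc* and *Ccnd1*. The other tested genes of the list, *Axin2* among them, did not pass, with edgeR adjusted p of 0.143 to 0.794. *Myc*, a growth regulator, rose from 14.57, 12.16 and 11.13 FPKM to 18.62, 19.72 and 22.39 FPKM (log2 fold change 0.68, edgeR adjusted p = 0.00288). *Ccnd1*, which encodes the G1 cyclin D1, fell from 143.8, 129.8 and 112.5 FPKM to 67.63, 74.34 and 109.2 FPKM (log2 fold change -0.62, edgeR adjusted p = 0.0310). *Tcf7*, counted both as a target and as 1 of the 3 tested TCF factors, rose from 0.17, 0.25 and 0.18 FPKM to 0.44, 0.55 and 0.49 FPKM (log2 fold change 1.30, edgeR adjusted p = 0.0206). This rests on low counts, 9, 13 and 9 in the controls and 22, 29 and 26 in the mutants. Over the settings its log2 fold change ran from 0.315 to 1.49. The lowest value came from limma on log2(FPKM + 1), where the added 1 is larger than every level of this gene. Both *Myc* and *Ccnd1* are also known as targets of other pathways, and these 3 genes moved in both directions.

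Of the other roles, *Lgr4*, a receptor of R-spondins, fell (log2 fold change -0.41, edgeR adjusted p = 0.0433), as 1 of 3 tested genes of the R-spondin axis. *Dvl2*, which relays the signal from Frizzled receptors, fell as the only called gene of 14 tested in the intracellular core (log2 fold change -0.36, edgeR adjusted p = 0.0258). *Prickle1*, a planar cell polarity gene, rose from 1.58, 1.25 and 0.90 FPKM to 1.88, 2.60 and 2.28 FPKM (log2 fold change 0.84, edgeR adjusted p = 0.0261), as 1 of 7 tested. Neither of the 2 tested genes of ligand release passed. The shares called were 33.3% in the R-spondin axis, 7.14% in the intracellular core and 14.3% in planar polarity, against 13.2% of all genes.

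The 5 most abundant of the remaining genes did not pass the threshold in edgeR. *Ctnnb1*, which encodes β-catenin, was at 168 ± 7.76 FPKM in the controls and 174 ± 9.46 FPKM in the mutants (log2 fold change 0.04, 95% confidence interval -0.12 to 0.21). The kinase genes *Csnk1a1* and *Gsk3a* were at 108 and 116 FPKM and at 85.0 and 88.5 FPKM. *Wnt7b* was at 57.6 and 53.5 FPKM, and *Wls*, the carrier of Wnt ligands to the cell surface, at 37.0 and 38.7 FPKM.

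**Figure D5:**
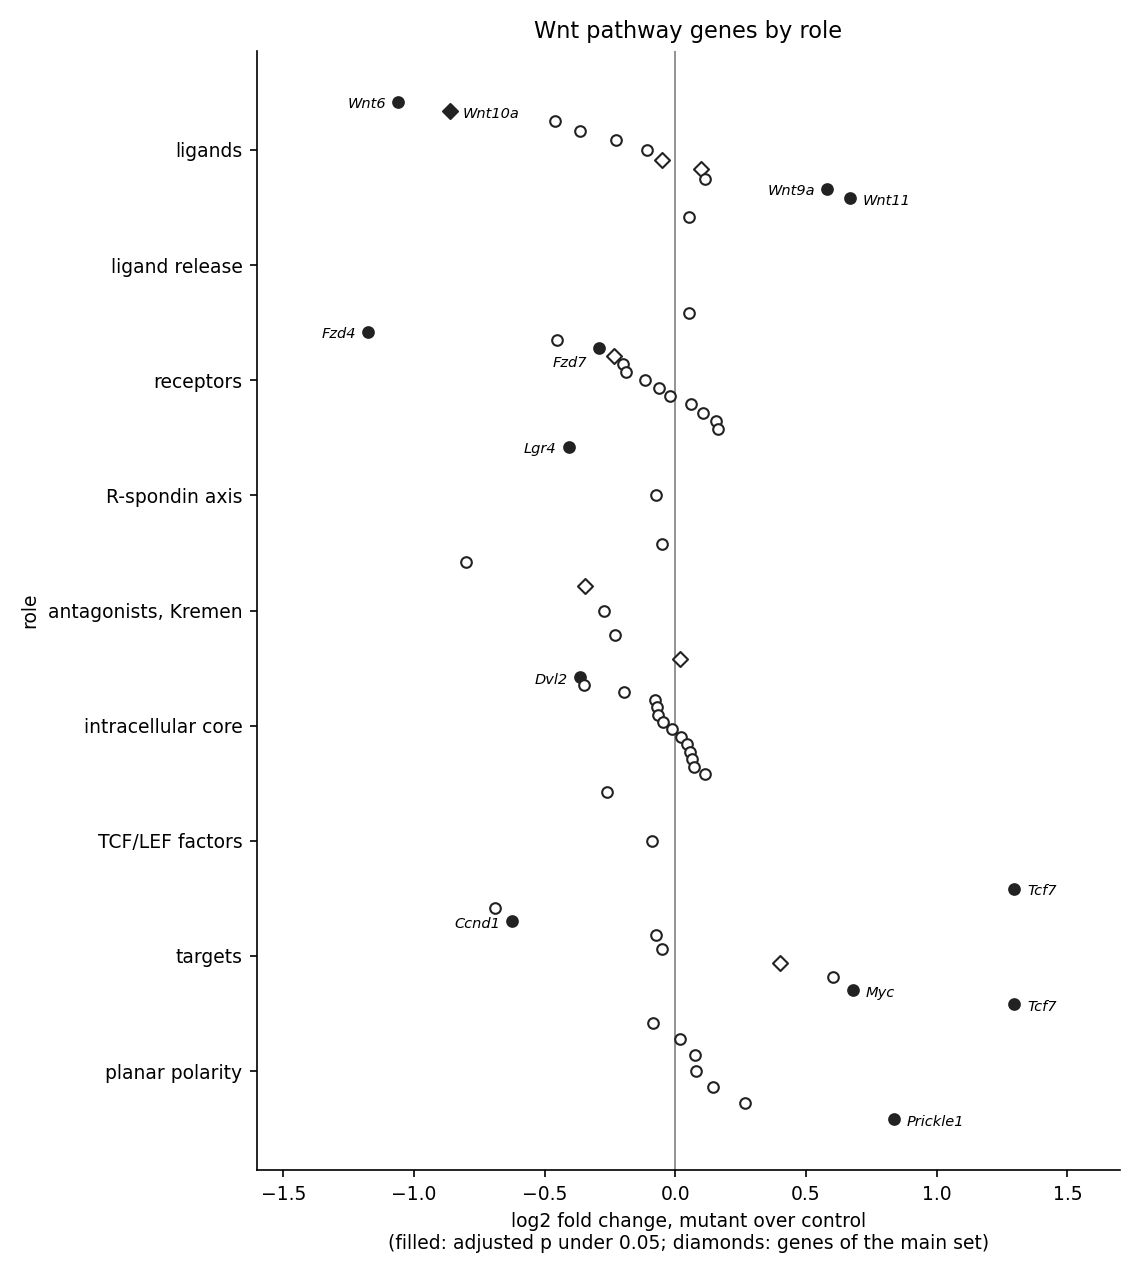
Log2 fold change (mutant over control, x axis) of the Wnt pathway genes tested, grouped by role (y axis), with filled symbols for an adjusted p under 0.05 and diamonds for the genes described first. *Wnt6*, *Wnt10a* and *Fzd4* lie farthest left of the called genes, *Tcf7* (drawn under both of its roles) and *Prickle1* farthest right.

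The 3 tested genes whose centred log2 profile over the 6 samples was closest to that of *Wnt10a* were *Cbs* (root mean square difference 0.0871 on the log2 scale), *Cx3cl1* (0.0900) and *Mtss1l* (0.10). *Cbs*, an enzyme of cysteine synthesis, was at 4.80, 5.24 and 4.70 FPKM in the controls and at 1.76, 2.93 and 3.37 FPKM in the mutants. *Cx3cl1*, the chemokine fractalkine, was at 24.12, 24.55 and 22.3 FPKM in the controls and at 9.51, 14.89 and 18.62 FPKM in the mutants. In both genes mutant 1 was lowest and mutant 3 the nearest to the controls, as in *Wnt10a*. Both were chosen for their likeness to *Wnt10a* over these samples, so the shared order is not a separate result.

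Windows from 250 bases before to 50 bases after annotated start sites (RefSeq, GRCm38.p6) were searched on both strands for the TCF/LEF core (ATCAAAG or TTCAAAG), the AP-1 core (TGANTCA) and the NF-κB motif. These occur in 8.65%, 7.81% and 8.46% of 32851 such windows. Windows of *Wnt4*, *Axin2*, *Dkk2* and *Lef1* were searched, and those of *Wnt6*, *Wnt9a* and *Wnt11* were added after their values were seen. No window was available for *Wnt10a*, *Wnt5a*, *Fzd6*, *Dkk3* or *Sfrp1*, so these were not searched. *Lef1* and *Wnt11* had more than 1 window, and the other window of *Wnt11* held no match. The single match was an ATCAAAG on the sense strand of *Wnt11*, 51 bases before the start. That window is shown with the match in capitals, beside that of *Axin2*, the Wnt readout gene, in which none of these letters was found.
*Wnt11*, chr7:98834862-98835161, plus strand: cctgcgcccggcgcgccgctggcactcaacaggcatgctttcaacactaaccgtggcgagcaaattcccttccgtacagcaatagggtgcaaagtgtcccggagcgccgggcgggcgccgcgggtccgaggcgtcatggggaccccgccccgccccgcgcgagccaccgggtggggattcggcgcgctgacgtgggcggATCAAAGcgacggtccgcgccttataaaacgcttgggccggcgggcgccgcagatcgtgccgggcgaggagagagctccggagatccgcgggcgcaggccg
*Axin2*, chr11:108920099-108920398, plus strand: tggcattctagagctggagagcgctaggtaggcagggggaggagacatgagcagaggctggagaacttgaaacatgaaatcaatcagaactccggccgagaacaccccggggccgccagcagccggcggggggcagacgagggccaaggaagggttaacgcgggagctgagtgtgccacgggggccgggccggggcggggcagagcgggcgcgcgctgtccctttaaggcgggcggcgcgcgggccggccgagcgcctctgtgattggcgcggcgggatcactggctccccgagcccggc
Such a match describes the letters of the window and is not a measured binding site.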

How the data were processed

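RNA of the corneal epithelial layer was measured in 3 control and 3 mutant samples, grouped by the genotype in the labels. The authors filtered single-end reads of 50 bases with SOAPnuke, aligned them with Bowtie2 2.2.5 and deposited expected counts from RSEM 1.2.12, neither normalized nor pooled, of which 31.5% to 32.2% per sample were not whole numbers. FPKM values per sample were deposited too, as were columns of their own comparison (fold changes and p-values), which were not used. The labels name an Illumina library kit and mm9, while the methods give rRNA removal and a BGISEQ-500 instrument, and the coordinates of the table carry GRCm38 accessions. They were printed as GRCm38, and all 9 genes overlapped their RefSeq gene of that build.

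Expected counts were rounded and fitted over all genes with edgeR 4.0.16 in R 4.3.3 (TMM scaling, filterByExpr with a minimum count of 10 and a total of 15, quasi-likelihood test of genotype, Benjamini-Hochberg adjustment). A share or sum of FPKM is a description. Single values were compared with exact permutation tests. Ratios of low counts carry 95% exact binomial intervals. The scripts were tested on simulated data. The genes, the wider Wnt list (95 genes) and the marker lists were chosen with earlier results of these data known. Named genes are those chosen, *Rela*, every gene of the wider list with an adjusted p under 0.05, its 5 most abundant others, and the 3 profiles closest to a passing gene. Alternatives were DESeq2 1.42.0, upper-quartile scaling, other filters, limma 3.58.1 on log2(FPKM + 1) and log2(FPKM + 0.1), a replicate block, each sample left out, other thresholds, and CPM in place of FPKM for shares. Depth was 19492942 to 19733834 expected counts per sample. Protein sequences were not used here.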

Additional observations from a re-analysis of the deposited data

How the results depend on the processing

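*Wnt10a* was negative under every alternative tried (log2 fold change -1.13 to -0.62, adjusted p 0.00021 to 0.103). Of the genes chosen, 1 passed an adjusted p under 0.05 in edgeR, 3 in DESeq2 (with *Fzd6* and *Dkk3* added, where 14.4% of all genes passed), 0 at an adjusted p under 0.01, and 0 to 2 when 1 sample was left out (0 without any 1 control or mutant 2, and 2 without mutant 3). The number differentially expressed was 0 under every alternative. A fold change of at least 1.5 was tried in the main edgeR fit only, with the adjusted p limit of 0.001 kept. That trial could not change the number, since the lowest edgeR adjusted p of the genes chosen was 0.0257 (*Wnt10a*). In DESeq2, *Wnt10a* had a log2 fold change of -0.863 (DESeq2 adjusted p = 0.00021), and the lower fold threshold was not tried there. Of the wider list 12 passed, with 5 to 13 when 1 sample was left out (7 without control 1, 6 without control 2 or 3, and 5 without mutant 2), where fewer samples entered the fit. Over all genes, 1678 passed in edgeR with every sample and 857 to 1869 with 1 sample left out. The sign turned for *Wnt5a* without mutant 1 (-0.0176, over samples left out -0.0176 to 0.218) and for *Sfrp1* without control 3 (-0.0375, over samples left out -0.0375 to 0.0627), and neither passed the test in any setting. Deviations of same-numbered control and mutant samples from their group means had correlations of 0.019, 0.0483 and -0.0464. No large shared shift was seen, but with 3 samples per group this cannot exclude that the samples were paired. With the replicate block, 1 of the genes chosen and 11 of the wider list passed in edgeR. *Wnt10a* then had a log2 fold change of -0.91 (edgeR adjusted p = 0.0269). On CPM, which is not divided by length, *Wnt10a* made up 3.99% of the ligand sum in the controls and 2.2% in the mutants, and *Wnt4* 51.0% and 49.7%. The low counts of *Dkk2*, *Lef1*, *Axin2* and *Tcf7* limit what can be seen in them.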
